A study of Homo sapiens with 6 samples.

Results

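Cholesterol and fatty acids are made from the same starting unit, cytosolic acetyl-CoA, and the transcripts of 28 genes of these pathways were followed here in human fibroblasts. The genes were taken by symbol from the deposited table, which lists 58219 genes, and each of the 28 symbols was found there once. They comprise 6 enzymes of the mevalonate pathway, 11 enzymes that lead on from squalene synthesis to the sterol ring of cholesterol, 4 sterol regulators or carriers, and 7 enzymes of fatty acid synthesis, elongation and desaturation. The 6 mevalonate and 11 squalene and sterol ring enzymes together form the sterol branch of 17 genes. Polyadenylated RNA was sequenced from the fibroblast line IMR90, which comes from normal human lung and is diploid, carrying ER-RAS (ER-RASG12V in the design text), an oncogenic RAS joined to a hormone-binding part of the oestrogen receptor and switched on by 4-hydroxytamoxifen (4OHT). Cells named committed received 100 nM 4OHT for 72 h (3 libraries, A, B and C), and cells named uncommitted controls received 100 nM 4OHT for 30 h (3 libraries, A, B and C). The sample titles call these times 3 days and 1.5 days, and the hours follow the treatment protocol and the column names. Both groups carry the transgene, both received 4OHT, and both grew in medium with 10% fetal bovine serum, a source of cholesterol and fatty acids. No group without 4OHT is analysed here, so each difference is one between a later and an earlier time and time in culture cannot be told apart from time in 4OHT. Nothing in the labels says that the replicates were grown separately, so the p-values reflect only how far these libraries spread, which may be technical.

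As background, the mevalonate pathway turns acetyl-CoA into the isoprene units from which farnesyl diphosphate is built. That intermediate is used for protein prenylation, dolichol and ubiquinone, and it is also joined into squalene, which is closed into lanosterol and trimmed to cholesterol in the endoplasmic reticulum. SREBF1 and SREBF2 encode the SREBP transcription factors, which are held in the endoplasmic reticulum membrane by SCAP and INSIG proteins when sterols are plentiful and are cut and released to the nucleus when sterols are scarce. The SREBF2 product acts mainly on sterol genes and the SREBF1 product mainly on fatty acid genes, often with the factors NF-Y and SP1 bound close by. Fatty acid synthesis runs from citrate through ACLY, ACACA and FASN to palmitate, which ELOVL6 and SCD lengthen and desaturate, while FADS1 and FADS2 desaturate polyunsaturated fatty acids.

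The promoters below belong to the called genes with the largest rise and the largest fall in each branch (TM7SF2 and MVK of the sterol branch, FADS1 and SCD of the fatty acid enzymes) and to the regulators SREBF1, SREBF2 and INSIG1. Each runs from 250 bases before to 50 bases after the RefSeq start of the gene, 5′ to 3′ on the gene's strand, from the RefSeq annotation of GRCh38.p14. Capitals mark every match, on either strand, to the sterol regulatory element core TCACNCCAC, the E-box CACGTG, the NF-Y box CCAAT or the GC box GGGCGG. The windows lie at chr11:65111622-65111921 on the plus strand for TM7SF2, chr12:109573544-109573843 on the plus strand for MVK, chr11:61816954-61817253 on the minus strand for FADS1, chr10:100346983-100347282 on the plus strand for SCD, chr17:17836937-17837236 on the minus strand for SREBF1, chr22:41832855-41833154 on the plus strand for SREBF2 and chr7:155297628-155297927 on the plus strand for INSIG1.
TM7SF2: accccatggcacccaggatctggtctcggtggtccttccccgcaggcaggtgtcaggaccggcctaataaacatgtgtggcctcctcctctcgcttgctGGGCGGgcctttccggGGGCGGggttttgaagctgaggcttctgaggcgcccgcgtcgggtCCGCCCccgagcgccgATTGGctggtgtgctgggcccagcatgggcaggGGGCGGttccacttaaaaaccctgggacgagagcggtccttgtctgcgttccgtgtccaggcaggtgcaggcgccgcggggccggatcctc
MVK: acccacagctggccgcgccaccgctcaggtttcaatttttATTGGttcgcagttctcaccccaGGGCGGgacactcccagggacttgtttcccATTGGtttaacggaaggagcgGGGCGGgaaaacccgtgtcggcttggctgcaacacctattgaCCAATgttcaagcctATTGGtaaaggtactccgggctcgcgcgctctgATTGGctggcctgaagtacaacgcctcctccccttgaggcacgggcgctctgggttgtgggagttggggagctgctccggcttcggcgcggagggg
FADS1: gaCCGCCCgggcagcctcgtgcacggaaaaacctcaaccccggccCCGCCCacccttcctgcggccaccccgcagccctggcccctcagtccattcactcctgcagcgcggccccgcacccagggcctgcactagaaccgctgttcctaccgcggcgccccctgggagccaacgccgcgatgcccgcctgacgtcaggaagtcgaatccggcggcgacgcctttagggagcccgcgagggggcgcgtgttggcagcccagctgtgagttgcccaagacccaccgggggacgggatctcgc
SCD: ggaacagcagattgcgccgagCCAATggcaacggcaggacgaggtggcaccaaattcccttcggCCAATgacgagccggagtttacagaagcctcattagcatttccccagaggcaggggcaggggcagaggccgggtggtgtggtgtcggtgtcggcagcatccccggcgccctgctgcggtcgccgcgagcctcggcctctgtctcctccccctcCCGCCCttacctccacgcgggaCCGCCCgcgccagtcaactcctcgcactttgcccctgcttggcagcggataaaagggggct
SREBF1: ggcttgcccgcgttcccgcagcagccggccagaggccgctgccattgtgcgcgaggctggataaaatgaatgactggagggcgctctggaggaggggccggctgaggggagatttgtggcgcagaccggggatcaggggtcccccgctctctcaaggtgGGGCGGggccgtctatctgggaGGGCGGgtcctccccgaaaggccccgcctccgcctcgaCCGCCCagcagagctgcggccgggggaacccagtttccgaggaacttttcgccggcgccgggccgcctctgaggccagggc
SREBF2: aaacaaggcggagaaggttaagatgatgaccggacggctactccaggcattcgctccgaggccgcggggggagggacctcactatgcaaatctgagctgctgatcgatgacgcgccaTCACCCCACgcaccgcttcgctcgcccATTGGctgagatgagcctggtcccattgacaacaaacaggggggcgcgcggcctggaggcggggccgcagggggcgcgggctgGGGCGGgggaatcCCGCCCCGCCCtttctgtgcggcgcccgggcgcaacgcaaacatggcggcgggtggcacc
INSIG1: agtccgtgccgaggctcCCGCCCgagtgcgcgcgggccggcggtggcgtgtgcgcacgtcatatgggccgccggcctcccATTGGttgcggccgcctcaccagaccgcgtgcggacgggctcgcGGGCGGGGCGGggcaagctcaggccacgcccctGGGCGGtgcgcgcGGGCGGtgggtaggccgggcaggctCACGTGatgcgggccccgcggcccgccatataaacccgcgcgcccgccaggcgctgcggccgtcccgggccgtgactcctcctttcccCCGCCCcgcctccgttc
Among these promoters the MVK window held 5 NF-Y boxes and 2 GC boxes, the TM7SF2 window 1 NF-Y box and 4 GC boxes, and the FADS1 window 2 GC boxes and no match to the other motifs. SREBF2, whose window held the sterol regulatory element core, was the 1 gene with that match among the 25 of the 28 genes with a promoter in the table used. This core was found in 1.11% of the promoters of 9670 tested genes. The NF-Y box was found in 17 of the 25 promoters (68%), against 36.8% of those 9670, and the GC box in 23 of the 25 (92%), against 70.6%. An E-box was found in 3 of the 25 (INSIG1, LSS and SC5D), against 10.2%. Of the 17 genes with an NF-Y box 5 rose and 5 fell at 72 h, and of the 8 without it 2 rose and 2 fell. Over all genes tested 23.6% rose and 25.0% fell, 48.6% in all, so both groups lay near that share. In SREBF2 and INSIG1 pairs of neighbouring GC boxes share bases and appear as 1 longer run of capitals. A match is a description of the letters and not of a bound factor, and 7 of the 25 genes have further start sites whose windows were not searched.

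Between 13221152 and 15703544 reads per library were assigned to genes, and each value below is such a count over the size factor its library was given by the authors (normalised count). The first principal component held 81.3% of the variance and separated the groups, and the second, with 7.0%, set the 2 letter C libraries apart. The normalised count of HRAS, to which reads of a RAS transgene may align, lay between 24770 and 30290 at 72 h, against 37140 to 37970 at 30 h. The summed normalised count of 10 fibroblast markers lay between 60929 and 70057 at 72 h, against 173335 to 183559 at 30 h. Of the 10 markers 7 fell, against 25.0% of all genes tested. These markers were thus abundant at both times and moved with the comparison. Sums of 8 epithelial markers lay between 642 and 761 at 72 h, against 734 to 845 at 30 h. SFTPC and KRT5 were at 0 in each library. Of the 3 epithelial markers tested 1 rose (log2 fold change 2.08) and 1 fell, against 23.6% and 25.0% of all genes tested. Their sum thus hides changes in both directions. Sums of 6 endothelial markers lay between 428 and 497 at 72 h, against 670 to 933 at 30 h, with CDH5 at 0. Nearly all of the endothelial sum was TEK, the 1 of the 6 that was tested (385 to 467 at 72 h, against 658 to 914 at 30 h), while KDR averaged 12.9 and 3.75, CLDN5 12.5 and 0.339 and PECAM1 6.37 and 3.02 at 72 h and 30 h. The 8 leukocyte markers summed to 10.2 to 16.8 at 72 h and 8.13 to 15.8 at 30 h (CD3E and TYROBP at 0), and the 6 adipocyte markers to 0 to 3.49 and 2.03 to 3.16 (ADIPOQ and LEP at 0). Reads of mitochondrial genes made up 4.23% to 4.83% of a library at 72 h, against 3.56% to 4.06% at 30 h, and the top 20 genes by abundance took 10.8% to 12.7%, against 9.73% to 10.0%. The part of these shares and of the fibroblast markers and TEK in the results below was not tested. In bulk RNA, fewer cells of a kind and less RNA per cell cannot be told apart.

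At 72 h against 30 h, 9 of the 28 genes rose, 8 fell and 11 did not pass the test (limma, adjusted p under 0.05 over all 13315 genes tested). Over all genes tested 23.6% rose and 25.0% fell, 48.6% in all, against which the lipid genes had 17 calls among 28. Their median log2 fold change was 0.07, against 0.01 over all genes tested, and their median absolute log2 fold change was 0.27, against 0.28. The called genes with a change of at least 2-fold were TM7SF2, which was higher, and MVK, which was lower (2 of 28, against 11.9% of all genes tested). In 19 of the 28 genes the 3 libraries of 72 h did not overlap the 3 of 30 h, against 59.2% of all genes tested, with 72 h above in 10 and below in 9. Rises and falls lay side by side in each of the 4 groups of genes. All 28 genes passed the filter on low values.

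**Figure D1:**
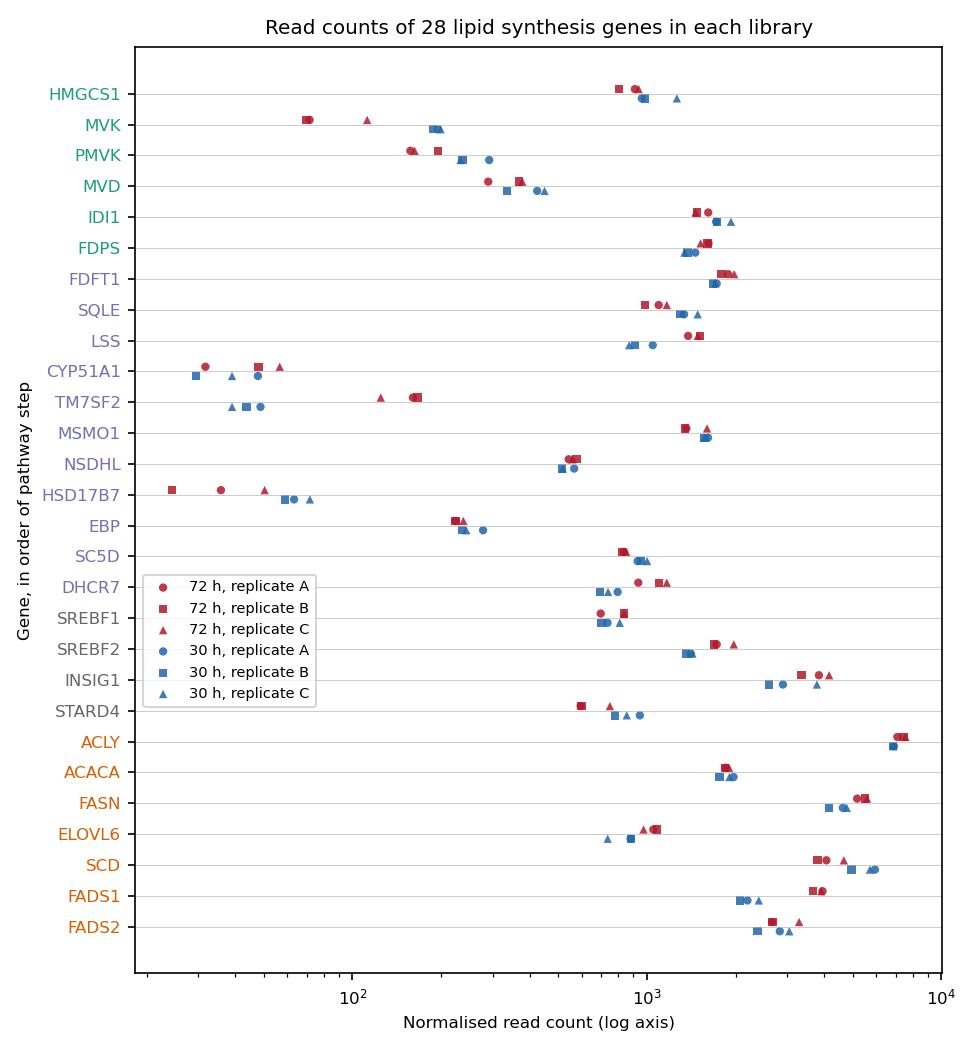
Normalised read count (log axis) of the 28 genes in each library, red for 72 h and blue for 30 h, with the replicate letter given by the marker and the gene names coloured by group (mevalonate green, squalene and sterol ring violet, regulators grey, fatty acid orange). The red and blue points of TM7SF2, MVK, LSS, DHCR7 and FADS1 are clearly apart, while those of CYP51A1, NSDHL, SREBF1, ACACA and FADS2 overlap.

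Of the 6 mevalonate enzymes 3 fell (MVK, PMVK and IDI1), 1 rose (FDPS) and 2 did not pass (HMGCS1 and MVD). Their median log2 fold change was -0.25, and over all genes tested 23.6% rose and 25.0% fell. The strongest fall was that of MVK, mevalonate kinase, which adds the first phosphate to mevalonate. MVK (chromosome 12, 109573255 to 109598117, GRCh38) had 71.5, 69.8 and 112 normalised counts in libraries A, B and C of 72 h, against 195, 188 and 199 in those of 30 h. Each library of 72 h lay below each of 30 h, and library C of 72 h lay above the other two of its group. The mean was 84.5 ± 24.0 at 72 h and 194 ± 5.74 at 30 h (SD, n = 3 each), a log2 fold change of -1.22 ± 0.18 (SE; adjusted p = 0.000371), or 2.34-fold lower. The promoter printed above, with its 5 NF-Y boxes, is that of this gene.

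PMVK, phosphomevalonate kinase, which adds the next phosphate, had 157, 195 and 163 normalised counts at 72 h and 291, 237 and 233 at 30 h. The groups did not overlap, and the fall was 0.56 on the log2 scale (adjusted p = 0.00461, limma). IDI1, the isomerase that makes the second isoprene unit, had 1616, 1481 and 1463 normalised counts at 72 h, against 1719.6, 1734 and 1929.9 at 30 h. Its fall was smaller, 0.24 on the log2 scale (adjusted p = 0.0128), again with no overlap between groups. FDPS, which builds farnesyl diphosphate from these units, went the other way. It had 1619, 1606 and 1522 normalised counts at 72 h and 1460.3, 1375 and 1341 at 30 h, a log2 fold change of 0.18 ± 0.06 (adjusted p = 0.0212). The FDPS call was lost without library A or B of 72 h (adjusted p = 0.0806 and 0.0643) or without library B or C of 30 h (0.0746 and 0.0519), and in the authors' deposited table (0.0653).

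HMGCS1, the synthase that makes HMG-CoA at the entry of the pathway, had 910.5, 806 and 938 normalised counts at 72 h and 961, 985 and 1264 at 30 h. The groups did not overlap, but the difference did not pass the test (log2 fold change -0.27, 95% interval -0.52 to -0.02, adjusted p = 0.0757). Library C of 30 h was the high one, and the difference was called without library A of 30 h (adjusted p = 0.0498). MVD, the decarboxylase that makes isopentenyl diphosphate, had 289, 368 and 378 normalised counts at 72 h, against 424, 334 and 449 at 30 h. Here the groups overlapped and the difference did not pass (log2 fold change -0.22, 95% interval -0.53 to 0.09, adjusted p = 0.216).

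Of the 11 squalene and sterol ring enzymes 4 rose (TM7SF2, LSS, DHCR7 and FDFT1), 3 fell (HSD17B7, SQLE and SC5D) and 4 did not pass (CYP51A1, MSMO1, NSDHL and EBP). Their median log2 fold change was 0.07, and over all genes tested 23.6% rose and 25.0% fell. The gene with the largest change of all 28 was TM7SF2, a sterol reductase that removes the ring double bond left behind by CYP51A1. TM7SF2 (chromosome 11, 65111845 to 65116384) had 160.4, 167 and 125 normalised counts at 72 h and 48.7, 43.7 and 39.0 at 30 h. The lowest library of 72 h was more than 2-fold above the highest of 30 h. Its mean was 151 ± 22.5 at 72 h and 43.8 ± 4.86 at 30 h (SD, n = 3 each), a log2 fold change of 1.75 ± 0.16 (adjusted p = 2.44e-05), or 3.37-fold higher. Of its exon bases 16 lie in VPS51 on the same strand, and VPS51 itself did not pass the test (log2 fold change 0.11, adjusted p = 0.415).

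LSS, lanosterol synthase, which closes the ring, had 1381, 1512 and 1488 normalised counts at 72 h, against 1047, 910.3 and 871 at 30 h. All libraries of 72 h lay above those of 30 h, with a log2 fold change of 0.63 ± 0.08 (adjusted p = 0.000123). SQLE, squalene epoxidase, which makes the substrate of LSS and is an oxygen-dependent control point of the pathway, fell instead. It had 1096, 984 and 1168.5 normalised counts at 72 h and 1337, 1299 and 1488 at 30 h, a fall of 0.35 on the log2 scale (adjusted p = 0.0048). The ratio of LSS to SQLE counts was 1.26, 1.54 and 1.27 at 72 h and 0.783, 0.701 and 0.585 at 30 h. This ratio was higher in each library of 72 h than in each of 30 h. Per kilobase of exon, LSS averaged 201.8 normalised counts at 72 h and 130.3 at 30 h, and SQLE 251.5 and 319.4. On that scale LSS stayed below SQLE at both times, so the ratio changed but not the order. DHCR7, the reductase of the last step to cholesterol, had 935, 1099.5 and 1168.5 normalised counts at 72 h, against 795, 694 and 738 at 30 h. It rose without overlap between groups (log2 fold change 0.52 ± 0.09, adjusted p = 0.00103).

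FDFT1, squalene synthase, had 1887, 1794 and 1979 normalised counts at 72 h and 1725, 1674 and 1708 at 30 h. The groups did not overlap, but the log2 fold change was 0.15 and the adjusted p of 0.0482 lay at the threshold. The call was lost without library A or C of 72 h (0.117 and 0.131), without library A, B or C of 30 h (0.0931, 0.145 and 0.0665) and in the authors' deposited table (0.144). HSD17B7, a reductase that restores the ring hydroxyl during demethylation, was low, with 35.8, 24.4 and 50.3 normalised counts at 72 h, against 63.4, 58.9 and 71.7 at 30 h. Its fall of 0.85 on the log2 scale (adjusted p = 0.0177) was lost without library A or B of 72 h (0.0525 and 0.0518), and part of its reads is uncertain because the near-copy HSD17B7P2 is also listed, at 1.02 to 5.24 at 72 h and 1.95 to 9.14 at 30 h. SC5D, a desaturase of the sterol ring, had 836, 821 and 851 normalised counts at 72 h, against 929.97, 953 and 1002 at 30 h. That fall was 0.20 on the log2 scale (adjusted p = 0.0155) and did not pass in the authors' deposited table (0.0601).

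The 4 ring enzymes that did not pass act at the steps between lanosterol and the last reductions, where the called TM7SF2, HSD17B7 and SC5D act as well. MSMO1, the methyl oxidase, had 1362, 1344.5 and 1601 normalised counts at 72 h and 1612, 1571 and 1567 at 30 h (log2 fold change -0.15, adjusted p = 0.118). Library C of 72 h stood above the other two of its group and within 30 h, and without it the difference was called (log2 fold change -0.23, adjusted p = 0.00752). NSDHL, which removes the oxidised methyl groups as carbon dioxide, had 543, 576 and 559 normalised counts at 72 h, against 566, 516 and 518 at 30 h (0.07, 95% interval -0.08 to 0.22, adjusted p = 0.435). EBP, the isomerase that moves the ring double bond, had 224, 224 and 238 at 72 h, against 278, 236 and 244 at 30 h (-0.14, 95% interval -0.35 to 0.07, adjusted p = 0.259). CYP51A1, the lanosterol demethylase, was listed at a low level for a main-line enzyme, with 31.7, 48.0 and 56.6 normalised counts at 72 h and 47.8, 29.5 and 39.0 at 30 h (0.21, 95% interval -0.37 to 0.79, adjusted p = 0.534). In GENCODE 29, whose coordinates for CYP51A1 differ from the deposited ones, 79.4% of its exon bases are shared on the same strand with another annotated gene. In the deposited coordinates LRRD1 covers 99.97% of its span, and LRRD1 averaged 0.981 normalised counts at 72 h and 1.02 at 30 h. Reads of CYP51A1 may have been set aside in counting, which was not tested, and its level here is uncertain.

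**Figure D2:**
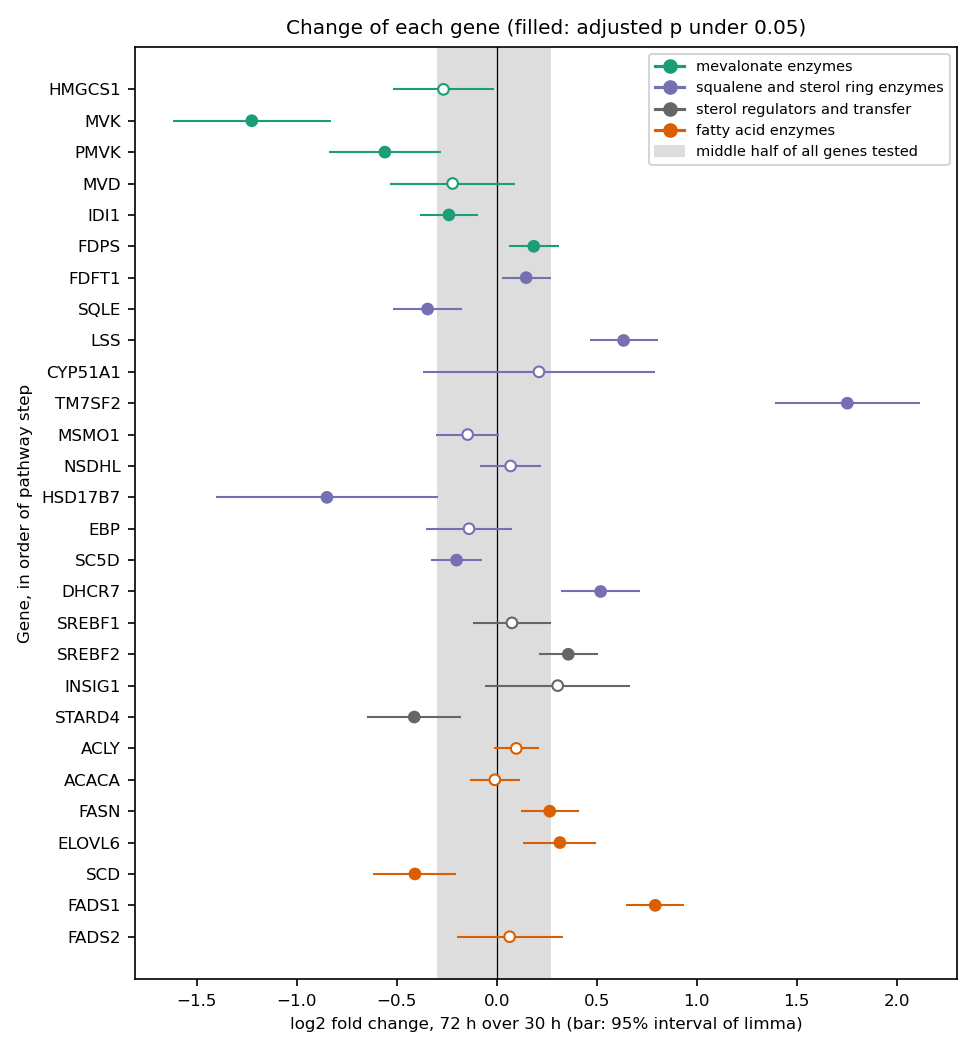
Log2 fold change of each of the 28 genes, 72 h over 30 h (x axis), with its 95% interval from limma, filled where the adjusted p was under 0.05 and coloured by group. The grey band runs from the lower to the upper quartile of all 13315 genes tested (-0.30 to 0.27), and TM7SF2 at 1.75 and MVK at -1.22 lie farthest from 0.

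Of the 4 regulators and carriers 1 rose (SREBF2), 1 fell (STARD4) and 2 did not pass (INSIG1 and SREBF1). The shares over all genes tested were 23.6% that rose and 25.0% that fell. SREBF2, the gene of the SREBP factor that favours sterol genes, had 1726, 1692 and 1973 normalised counts at 72 h, against 1409.6, 1360.3 and 1428 at 30 h. All libraries of 72 h were above those of 30 h, and its log2 fold change was 0.36 ± 0.07 (adjusted p = 0.00167). SREBF1, the gene of the factor that favours fatty acid genes, had 697, 838 and 837 normalised counts at 72 h and 735, 702 and 809 at 30 h. Its groups overlapped and the difference did not pass (log2 fold change 0.08, 95% interval -0.12 to 0.27, adjusted p = 0.508). The ratio of SREBF1 to SREBF2 counts was 0.404, 0.495 and 0.424 at 72 h and 0.521, 0.516 and 0.566 at 30 h, lower in each library of 72 h than in each of 30 h. Gene counts do not separate the isoforms of either gene.

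INSIG1, which holds the SCAP and SREBP complex in the endoplasmic reticulum and is itself a target of SREBP, was among the most abundant of the 28, with 3839, 3353.5 and 4158 normalised counts at 72 h and 2897, 2596 and 3778.5 at 30 h. Library C was the highest in both groups, the groups overlapped through library C of 30 h, and the difference did not pass (log2 fold change 0.30, 95% interval -0.06 to 0.67, adjusted p = 0.144). Without library C of 30 h it was called (log2 fold change 0.46, adjusted p = 0.00406), and with both libraries of letter C left out as well (0.39, adjusted p = 0.000223). STARD4, a soluble carrier of cholesterol between membranes, had 596, 599.9 and 749 normalised counts at 72 h, against 947, 781 and 854 at 30 h. The groups did not overlap and it fell by 0.41 on the log2 scale (adjusted p = 0.00954). The letter C libraries touched more of these genes than INSIG1. In 10 of the 28 genes library C was the highest of its group at both times (35.7%, against 17.2% of all genes tested), and these were HMGCS1, MVK, MVD, SQLE, HSD17B7, SC5D, SREBF2, INSIG1, FASN and FADS2.

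Of the 7 fatty acid enzymes 3 rose (FADS1, ELOVL6 and FASN), 1 fell (SCD) and 3 did not pass (ACLY, ACACA and FADS2), with a median log2 fold change of 0.10. The shares over all genes tested were 23.6% that rose and 25.0% that fell. The strongest change was in FADS1, the desaturase that makes arachidonic acid and related polyunsaturated fatty acids. FADS1 (chromosome 11, 61799625 to 61829318) had 3948, 3671 and 3909 normalised counts at 72 h, against 2195, 2069.5 and 2399 at 30 h. Each library of 72 h lay well above each of 30 h, and the mean was 3843 ± 149.9 at 72 h and 2221 ± 166 at 30 h (SD, n = 3 each). Its log2 fold change was 0.79 ± 0.06 (adjusted p = 1.18e-05), or 1.73-fold higher, and its promoter is printed above. FADS2, the desaturase of an earlier step of the same route, had 2662, 2672.5 and 3288 normalised counts at 72 h and 2827, 2376 and 3046 at 30 h. These overlapped and did not pass (log2 fold change 0.06, 95% interval -0.20 to 0.33, adjusted p = 0.677).

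FADS1 and FADS2 overlap on opposite strands. The span of FADS1 in the deposited table lies within that of FADS2, the first listed RefSeq start of FADS1 lies 800 bases inside FADS2, and 490 exon bases overlap in GENCODE 29, so part of their reads cannot be told apart where strand was not used in counting. The ratio of FADS1 to FADS2 counts was 1.48, 1.37 and 1.19 at 72 h and 0.777, 0.871 and 0.788 at 30 h. FADS1 had more counts than FADS2 in each library of 72 h and fewer in each of 30 h.

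SCD, which places the first double bond in saturated fatty acids and so makes oleate, had 4069, 3794 and 4664.5 normalised counts at 72 h, against 5949, 4953 and 5721 at 30 h. The groups did not overlap and SCD fell by 0.41 on the log2 scale (adjusted p = 0.00564). ELOVL6, which lengthens palmitate to stearate, rose, with 1051.5, 1079.5 and 974 normalised counts at 72 h and 880.3, 885 and 736 at 30 h (log2 fold change 0.32 ± 0.08, adjusted p = 0.00976). FASN, the synthase of palmitate, had 5176, 5491 and 5593 normalised counts at 72 h, against 4628, 4147 and 4773 at 30 h (log2 fold change 0.26 ± 0.06, adjusted p = 0.00714). The synthase and the elongase were thus higher at 72 h and the desaturase of their products lower. The ratio of SCD to FASN counts was 0.786, 0.691 and 0.834 at 72 h, against 1.29, 1.19 and 1.20 at 30 h.

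The 2 enzymes that supply FASN with its building blocks did not pass. ACLY, which makes cytosolic acetyl-CoA from citrate, had 7089, 7442 and 7551 normalised counts at 72 h and 6901, 6844 and 6886 at 30 h. Its groups did not overlap, but the difference was small (log2 fold change 0.10, 95% interval -0.01 to 0.21, adjusted p = 0.135). With quantile scaling ACLY was called (log2 fold change 0.16, adjusted p = 0.0337). ACACA, which makes malonyl-CoA, had 1855, 1841 and 1902 normalised counts at 72 h, against 1969, 1765 and 1907 at 30 h. ACACA had the smallest difference of the 28 (log2 fold change -0.01, 95% interval -0.14 to 0.12, adjusted p = 0.906).

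Set against each other, the sterol branch had 5 rises and 6 falls among 17 enzymes and a median log2 fold change of -0.15, and the fatty acid branch had 3 rises and 1 fall among 7 and a median of 0.10. Calls thus numbered 11 of 17 and 4 of 7, against 48.6% of all genes tested (23.6% rose and 25.0% fell). The difference between the branches was not tested, since genes are not replicates. Summed over the 6 mevalonate enzymes, the normalised count was 4663, 4525 and 4575 at 72 h and 5051, 4853 and 5417 at 30 h, so each library of 72 h was lower. Summed over the 11 squalene and sterol ring enzymes, it was 8492, 8594 and 9285 at 72 h, against 8452, 7985 and 8286 at 30 h, so each library of 72 h was higher, library A by little. This sum averaged 8790 at 72 h and 8241 at 30 h, and LSS alone averaged 1460 and 943. The rise of the LSS mean was thus nearly as large as that of the ring sum. With LSS included, the mevalonate and ring sums moved in opposite directions. The sum over all 17 sterol enzymes overlapped, with 13378 ± 418 at 72 h and 13348 ± 453 at 30 h (SD, n = 3 each). The 7 fatty acid enzymes summed to 25849, 25990 and 27882 at 72 h and 25350.0, 23039 and 25468 at 30 h, higher in each library of 72 h. The sterol sum over the fatty acid sum was 0.509, 0.505 and 0.497 at 72 h, against 0.533, 0.557 and 0.538 at 30 h, lower in each library of 72 h. This contrast in the ratio did not hold without FADS1. Without FADS1, a sum added after values were seen, the other 6 fatty acid enzymes summed to 21902, 22319 and 23973 at 72 h and 23155, 20969.9 and 23069 at 30 h, which overlap. The ratio without FADS1 overlapped too, with 0.601, 0.588 and 0.578 at 72 h, against 0.583, 0.612 and 0.594 at 30 h. No other gene was left out of a sum, so how the sums of single libraries stand without LSS or another single gene was not tested.

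**Figure D3:**
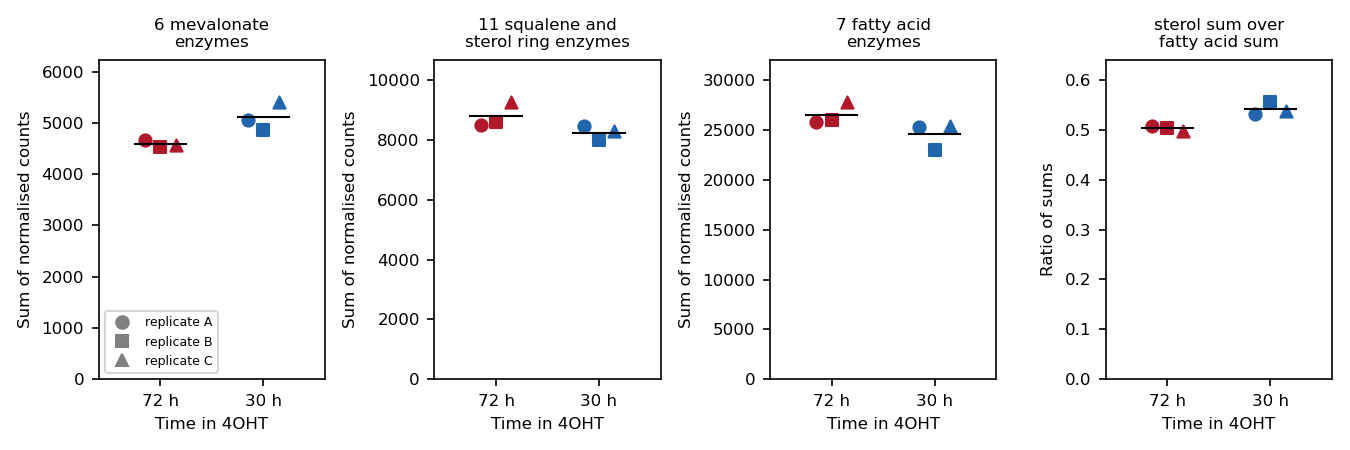
Summed normalised counts of the 6 mevalonate enzymes, the 11 squalene and sterol ring enzymes and the 7 fatty acid enzymes, and the ratio of the sterol sum to the fatty acid sum, by library (y axes from 0) for 72 h (red) and 30 h (blue), with bars at the means. The mevalonate sum and the ratio are lower at 72 h in each library, and the other 2 sums are higher.

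Per kilobase of exon in GENCODE 29, the level of ACLY was the highest of the 28 at both times, with 1411 normalised counts per kilobase at 72 h and 1318 at 30 h. INSIG1 had 1037 per kilobase at 72 h and 847 at 30 h, and SCD 779 and 1033, so their order was not the same at the 2 times. MSMO1 was the most abundant sterol ring enzyme on this scale, with 496.5 per kilobase at 72 h and 547.5 at 30 h. At the low end, HSD17B7 had 7.71 per kilobase at 72 h and 13.5 at 30 h, and CYP51A1 12.7 and 10.8. TM7SF2 had 44.2 per kilobase at 72 h and 12.9 at 30 h, so it stayed one of the less abundant transcripts of the pathway after its rise. MVK had 13.0 at 72 h and 29.95 at 30 h. The lengths are of all annotated exons together, and the isoforms in use were not measured.

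**Figure D4:**
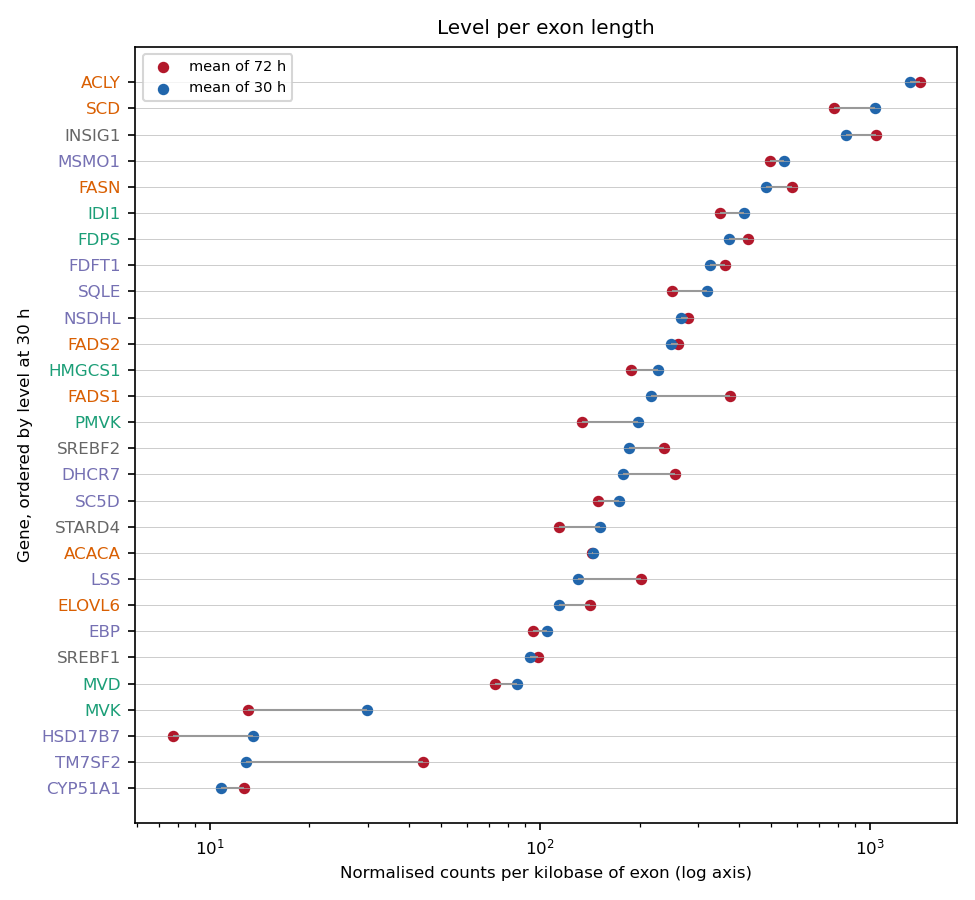
Mean normalised counts per kilobase of exon (log axis) of the 28 genes at 72 h (red) and 30 h (blue), ordered by the level at 30 h. ACLY is at the top with 1411 and 1318, and TM7SF2, MVK and FADS1 show wide gaps between the times.

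Genes around the pathways were read from 7 further lists in the same fit. Each count of calls in them stands against all genes tested, of which 23.6% rose and 25.0% fell, 48.6% in all. Of 18 genes that process SREBP or sense sterols 4 rose and 2 fell (median log2 fold change 0.05). SCAP, the escort of SREBP, averaged 933 ± 26.8 normalised counts at 72 h and 698 ± 6.37 at 30 h (log2 fold change 0.42, adjusted p = 0.00025), so SCAP and SREBF2 both rose. FAF2, which helps to extract ubiquitinated proteins such as INSIG1 from the membrane, also rose (0.40, adjusted p = 0.000144). The subunits of NF-Y did not move together, since NFYA rose (0.57, adjusted p = 9.52e-05), NFYB fell (-0.40, adjusted p = 0.00518) and NFYC did not pass (-0.06, adjusted p = 0.508).

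Of 25 tested genes of cholesterol uptake, transfer, storage and efflux (27 listed) 8 rose and 9 fell, with a median of -0.00. The sterol efflux pump ABCA1 averaged 7237 ± 399 normalised counts at 72 h and 3784 ± 189 at 30 h, 1.91-fold higher (log2 fold change 0.94 ± 0.06, adjusted p = 3.04e-06). ABCG1, another sterol exporter, averaged 391 ± 19.9 at 72 h and 176 ± 51.2 at 30 h, 2.27-fold higher (adjusted p = 0.00095). GRAMD1B and GRAMD1C, which carry cholesterol from the plasma membrane to the endoplasmic reticulum, fell by 1.45 and 0.87 on the log2 scale (adjusted p = 5.17e-05 and 0.000592). GRAMD1A, a carrier of the same family that was added after values were seen, rose instead (0.25, adjusted p = 0.0126), so this family did not move together.

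Among 17 tested genes of isoprenoid branches and prenylation (18 listed) 5 rose and 3 fell (median 0.09). Those named were SRD5A3 and NUS1 of dolichol synthesis, which rose by log2 fold changes of 0.79 and 0.34, RABGGTA, a subunit of the Rab prenyl transferase, which rose by 0.69, and ICMT, the methyltransferase of prenylated proteins including RAS, which fell by 0.41 on the log2 scale (adjusted p = 0.000567, 0.000685, 0.000705 and 0.000593 in that order). DHDDS, the partner of NUS1 in dolichol synthesis, added after values were seen, fell (-0.25, adjusted p = 0.0268). Of 15 tested supply genes for acetyl-CoA and NADPH (18 listed) 4 rose and 3 fell (median 0.05). The mitochondrial citrate carrier SLC25A1, which feeds ACLY, rose (0.41, adjusted p = 0.00183), as did PANK1, a kinase of coenzyme A synthesis (0.40, adjusted p = 0.0303). The 3 that fell were ME3, ACAT1 and ACAT2 (-0.78, -0.42 and -0.33, adjusted p = 0.00469, 0.00148 and 0.00795).

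The list with the widest changes held other enzymes of elongation, desaturation and fatty acid activation, of which 8 rose and 7 fell among 17 tested (19 listed), 6 of them called with at least a 2-fold change. Over all genes tested 48.6% were called, and 11.9% with at least a 2-fold change. The acyl-CoA synthetase ACSL4, which prefers arachidonic acid, averaged 15358 ± 892 normalised counts at 72 h and 4756 ± 423.5 at 30 h, 3.23-fold higher (log2 fold change 1.69 ± 0.07, adjusted p = 2.4e-07). ACSL4 and FADS1, which act on the same polyunsaturated fatty acids, were both higher at 72 h. Of the elongases of such fatty acids, ELOVL5 and ELOVL2 fell (log2 fold change -0.24 and -2.36, adjusted p = 0.00377 and 0.00148), and FADS2 did not pass. ELOVL2 was low, with a mean of 5.18 normalised counts at 72 h and 32.4 at 30 h. ACSL5, another synthetase, averaged 142 ± 11.7 at 72 h and 13.3 ± 8.78 at 30 h (log2 fold change 3.49 ± 0.37, adjusted p = 0.000151). ELOVL4, an elongase of very long chains, rose (1.46, adjusted p = 1.98e-06), and HACD1, a dehydratase of the elongation cycle, fell (-1.27, adjusted p = 1.09e-05). The median of this list was 0.00.

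Glycerolipid and lipid droplet genes had 6 rises and 3 falls among 20 tested (24 listed; median 0.06). DGAT2, which makes triglycerides, averaged 96.6 ± 21.6 normalised counts at 72 h and 13.2 ± 4.78 at 30 h (log2 fold change 2.81 ± 0.28, adjusted p = 3.96e-05). The droplet coat gene PLIN2 (0.58), the triglyceride lipase gene PNPLA2 (0.66) and HILPDA, the gene of an inhibitor of that lipase (0.62), also rose (adjusted p = 0.000312, 3.93e-05 and 0.00315). The 3 that fell were PLIN3 (-0.44), ABHD5 (-0.43) and LPIN1 (-0.24), with adjusted p = 0.000658, 0.00468 and 0.026. PLIN2 and PLIN3, of 1 family, thus moved in opposite directions. Fatty acid oxidation genes had 10 rises and 5 falls among 27 tested (29 listed; median 0.06). Here the carnitine transferase genes CPT1A, CPT1C and CPT2 rose by log2 fold changes of 0.86, 0.79 and 0.72 (adjusted p = 1.19e-05, 0.00012 and 0.000727), and the coactivator gene PPARGC1A averaged 68.1 ± 8.84 at 72 h and 14.5 ± 1.49 at 30 h (2.15, adjusted p = 2.54e-05). The 5 oxidation genes that fell were HADH (-0.70), HADHA (-0.27), ECI2 (-0.42), ETFA (-0.32) and EHHADH (-1.91). Their adjusted p was 0.00118, 0.00305, 0.0016, 0.00108 and 0.000981 in that order. Transcripts of both synthesis and breakdown of fatty acids were thus among those that rose and among those that fell.

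**Figure D5:**
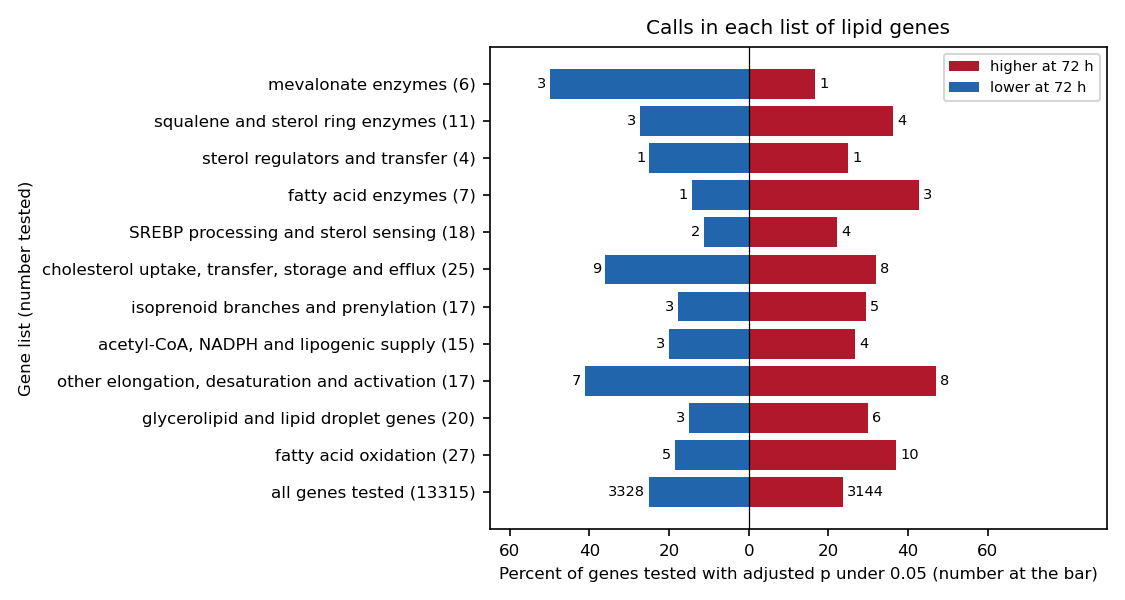
Percent of the tested genes of each list with adjusted p under 0.05, lower at 72 h (blue, left) or higher at 72 h (red, right), with the number of genes at each bar and all 13315 genes tested at the foot. The mevalonate bar reaches farthest to the left (3 of 6), and the bar of other elongation, desaturation and activation genes farthest to the right (8 of 17).

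Several of these genes share exon bases with another gene on the opposite strand in GENCODE 29, and whether counting used strand is not given in any source used. Of MVK 306 exon bases (4.72%) lie opposite MMAB, which did not pass the test (log2 fold change -0.29, adjusted p = 0.129). The shared part was 18.6% for FDPS, 15% for HMGCS1 and 14.8% for IDI1, opposite antisense transcripts, and under 7% for FDFT1, SREBF1, SREBF2, STARD4 and ACLY. LSS shared 6.19% and 1.69% of its exon bases with 2 antisense genes. How reads were assigned in those stretches cannot be told from the table.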

How the data were processed

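RNA was measured in 6 libraries, 3 of 72 h and 3 of 30 h of 4OHT. The submitters' processing notes name Trimmomatic 0.35, STAR 2.5.1b, DESeq2 1.18.1 and the build GRCh38 (hg38). How reads were counted, on which annotation and with which strand setting, was not given in the sources used here. For each gene and library the authors deposited a signal value, which is a count of reads over the library's size factor. Whole reads were recovered from 100% of the values within 0.01. Further columns, per the file headers, are the authors' log2 fold change, a score (the Wald statistic) and p-values, raw and adjusted, used where that table is named. Columns of other samples left out numbered 0.

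The 13315 genes that reached 10 normalised counts in 3 or more libraries were tested on log2(value + 1) with limma 3.58.1 (trend and robust) in R 4.3.3, with Benjamini-Hochberg adjustment over all of them and a threshold of 0.05. Fold changes are on that scale, which understates changes of low genes. The steps were tested on simulated data. Alternatives were pseudocounts of 5 and 0.5, no filter and a filter of 50, quantile and TMM scaling, edgeR 4.0.16 and DESeq2 1.42.0 on the recovered reads (both count tests), the authors' table, a replicate block, each library left out, and both letter C libraries left out. Libraries of 1 group differed by more than sampling noise (chi-square per degree of freedom 3.34 to 16.3), so none was treated as a repeat deposit of another, though preparation alone can give such a spread.

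Named were all 28 genes and, from each other list, up to 4 called genes by size of change with 50 or more mean counts in 1 group. Added after values were seen were NFYC, GRAMD1A, DHDDS, ACAT2, VPS51, MMAB, HSD17B7P2, LRRD1, LBR, ELOVL2, ELOVL5, PLIN3, ABHD5, LPIN1, HADH, HADHA, ECI2, ETFA and EHHADH. The members and lists were chosen with earlier results of these data known. Exon lengths and overlaps are from GENCODE 29, and promoters from RefSeq (GRCh38.p14; 25 of 28 genes matched).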

Additional observations from a re-analysis of the deposited data

How the results depend on the processing

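Of 475 values of single genes under the alternatives, 440 kept direction and side of the threshold, 20 were no longer called, 10 became called and 5 changed sign. The sign changes were in ACACA (log2 fold change 0.020 under quantile scaling, -0.055 to 0.024 with 1 library left out) and FADS2 (-0.037 to 0.142 with 1 library left out), neither of them called under any setting. MVK, PMVK, IDI1, SQLE, LSS, TM7SF2, DHCR7, SREBF2, STARD4, FASN, ELOVL6, SCD and FADS1 were called in each of the 18 settings. FDFT1 was called in 8, FDPS in 12, and HSD17B7 and SC5D in 16 each. Called sterol enzymes numbered 8 to 12 and called fatty acid enzymes 4 to 5. The sterol median was -0.21 to -0.11 with 1 library left out, the low end without library C of 72 h, and the fatty acid median 0.08 to 0.14. Quantile scaling gave a fatty acid median of 0.16, against 0.10, and called ACLY. Deviations of same-letter libraries correlated at 0.00696 for A, 0.172 for B and 0.185 for C, so the letters were not taken as pairs. With a replicate block 6723 genes were called, against 6472 without it, and HMGCS1 (adjusted p = 0.0143) and INSIG1 (0.00298) became called. The causes of these changes were not tested. Low counts limit CYP51A1, which the filter of 50 removed, and HSD17B7.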

Other observations

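TM7SF2 shares its sterol reductase activity with LBR, the lamin B receptor of the inner nuclear membrane, which was looked up after the values of TM7SF2 were seen. LBR had 394, 422 and 402 normalised counts at 72 h, against 863, 814 and 792 at 30 h. It fell in each library, by 1.02 ± 0.07 on the log2 scale (SE; limma, adjusted p = 3.09e-06). TM7SF2 took 28.9%, 28.3% and 23.7% of the summed counts of both genes at 72 h and 5.35%, 5.09% and 4.70% at 30 h. LBR still had more counts than TM7SF2 in each library, and both together had 555, 589 and 527 counts at 72 h, against 911, 857 and 831 at 30 h. The pair therefore moved in opposite directions, and their sum was lower at 72 h.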
